A study of Mus musculus with 33 samples.

Results

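Fcna, Cd5l, Slpi, Pla2g2d, Pcolce2, Gfra2, Dgki, Ubd and Slc16a9 are 9 genes for secreted, signalling and related proteins. All were expressed in red pulp macrophages (RPM) of the mouse spleen and almost silent in the F4/80hi macrophages of the kidney. They are 9 of the 24054 genes counted. The set was chosen by these measured values: each gene was picked as near absent from kidney F4/80hi cells and present in RPM, with no numeric threshold stated. The difference between RPM and any other population is therefore described here and not tested for these genes.

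The study profiled RNA of macrophages and dendritic cells sorted from kidney and spleen in 33 libraries of 9 populations. All mice were 10 weeks old, on the C57BL/6 background, homozygous for Clec9a-Cre and for the Rosa-YFP reporter, so every population shares these alleles. Clec9a is active in precursors of conventional dendritic cells (cDC), and YFP marks cells in which Cre was active at some stage. In the spleen, RPM were autofluorescent, F4/80+ and YFP- (n = 3 libraries), cDC2 were not autofluorescent and were MHCII+ CD11c+ CD11b+ YFP+ (n = 3), and cDC1 were not autofluorescent and were MHCII+ CD11c+ CD24+ CD205+ YFP+ (n = 3). Kidney cells were CD45+ Ly6C- MHCII+ throughout. They comprised CD64+ F4/80low CD11bhi cells that were YFP+ (n = 5) or YFP- (n = 2), CD11c+ CD64- CD11b+ YFP+ cDC2 (n = 5), CD11c+ CD64- CD24+ YFP+ cDC1 (n = 6), and CD64+ F4/80hi CD11blow cells that were YFP+ (n = 3) or YFP- (n = 3). The labels do not say which libraries come from separate animals, so p-values measure only the spread between these libraries.

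Libraries held 8729224 to 23000575 reads in genes, and 22.62% to 64% of the counted reads lay outside genes. Library names carry the prefix GS (all spleen and all F4/80hi libraries, kidney cDC2 replicates 3 to 5, kidney cDC1 replicates 4 to 6) or BS (all CD11bhi libraries and the remaining kidney cDC). The prefix cannot be told apart from the population where a population has only 1 of them. All 7 of the 7 libraries with the sort code SR17_017, RPM replicate 1 among them, had Y-linked transcripts above Xist, and no other library did. The RPM label was checked against 10 red pulp macrophage markers, Spic, Vcam1, Hmox1, Slc40a1, Cd163, Treml4, Emr1, Fcgr1, Mertk and Axl. Their summed level was 34370 to 51150 CPM (reads per library total, scaled by TMM factors) in RPM, against 4148 to 4349 CPM in F4/80hi YFP- cells and 428.0 to 567.6 CPM in spleen cDC2, and none was at 0 in RPM.

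RPM take up aged red blood cells and recycle their iron, and their development depends on the transcription factor SPI-C, a relative of PU.1. Macrophages of this kind also release proteins into blood and tissue. Ficolins bind sugars on microbes and start the lectin pathway of complement, CD5L is a scavenger-receptor-like protein under control of the LXR nuclear receptors, SLPI blocks neutrophil serine proteases, and secreted phospholipases cut membrane phospholipids outside the cell.

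For Fcna, Slpi and Cd5l, the 3 members with the highest level per transcript length, the 250 bases before the annotated start are shown because nearly all reads of these genes came from RPM. They come from RefSeq (GRCm38.p6) and run 5′ to 3′ on the gene's own strand. Fcna is the window chr2:25627975-25628224 on the minus strand, Slpi is chr2:164356508-164356757 on the minus strand, and Cd5l is chr3:87357631-87357880 on the plus strand. The start used for Fcna lies inside the annotated span of the gene. Capitals mark the hexamer GAGGAA on either strand (TTCCTC when it lies on the other strand), a core recognised by PU.1 and SPI-C.
Fcna: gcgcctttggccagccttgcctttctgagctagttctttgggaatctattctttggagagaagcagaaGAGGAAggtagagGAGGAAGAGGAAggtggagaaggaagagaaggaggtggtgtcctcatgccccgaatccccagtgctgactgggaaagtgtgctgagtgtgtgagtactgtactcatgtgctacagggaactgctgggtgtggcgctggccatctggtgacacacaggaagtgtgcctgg
Slpi: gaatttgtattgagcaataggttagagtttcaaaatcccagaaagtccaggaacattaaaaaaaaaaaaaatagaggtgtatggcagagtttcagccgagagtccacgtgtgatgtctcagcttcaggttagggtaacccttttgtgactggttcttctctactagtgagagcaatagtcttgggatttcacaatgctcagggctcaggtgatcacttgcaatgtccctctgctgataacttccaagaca
Cd5l: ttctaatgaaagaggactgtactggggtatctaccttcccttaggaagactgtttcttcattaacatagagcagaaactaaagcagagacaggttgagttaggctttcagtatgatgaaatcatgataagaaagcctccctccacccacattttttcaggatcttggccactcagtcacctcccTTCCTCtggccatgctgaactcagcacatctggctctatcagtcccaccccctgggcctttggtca

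Fcna held 3 copies of GAGGAA on its own strand, beginning 182, 169 and 163 bases before the start. Cd5l held 1 copy on the opposite strand, 66 bases before the start, and Slpi held none. Over 8 of the 9 members with a window in the table, 2 held the hexamer, beside 23.3% of all 32851 windows of this length. Of all windows, 0.429% (141) held 3 or more copies, a cut that equals the count in Fcna, 1 of the 8 windows. The E-box CACGTG was present in Slpi alone (146 bases before the start), beside 6.02% of all windows. The direct repeat bound by LXR, AGGTCA and again AGGTCA after any 4 bases, was in 0 of the 8 windows (0.0152% of all), GAAA and again GAAA after any 2 bases, as in interferon-response elements, in 0 (2.98% of all), and TATAAA in 0 (12.4% of all). Both strands were searched, these motifs do not overlap each other in the member windows, and a match is a description of letters only.

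The secreted members Fcna, Slpi and Cd5l had the 3 highest levels in TPM of the 9 genes in RPM. Fcna, on chromosome 2 (chr2:25624665-25635440), encodes ficolin A. It reached 8747, 6185 and 4981 CPM in RPM, against 0.3884, 0.7976 and 0.4128 CPM in F4/80hi YFP- cells. All 3 RPM libraries stood far above every other library, of which the highest was a spleen cDC2 library at 9.641 CPM. In bulk samples, fewer cells that express a gene and less RNA per cell cannot be told apart. The RPM mean was 12450 times the F4/80hi YFP- mean, where 22 reads were counted over 3 libraries. On the TPM scale, which corrects for transcript length and so allows genes to be compared, Fcna averaged 6942 TPM in RPM and ranked 11 among 24027 genes.

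Slpi (chr2:164354070-164356507) was the steadiest of the secreted genes. It reached 2900, 3066 and 3199 CPM in RPM, against 0.1942, 0.1994 and 0.5505 CPM in F4/80hi YFP- cells. Its coefficient of variation among RPM libraries was 4.91% in CPM. In TPM these libraries ran from 4685 to 6135, and the mean of 5605 TPM ranked 17 among all genes. The RPM mean was 9708 times the F4/80hi YFP- mean (13 reads).

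Cd5l (chr3:87357881-87371074) reached 2958, 2155 and 1613 CPM in RPM, against 0, 0.3323 and 0.2752 CPM in F4/80hi YFP- cells. The order of the 3 RPM libraries was that of Fcna, with replicate 1 highest and replicate 3 lowest. Cd5l averaged 1553 TPM in RPM and ranked 73. The RPM mean was 11070 times the F4/80hi YFP- mean (9 reads) and 33100 times the F4/80hi YFP+ mean (3 reads, 95% interval 11330 to 160500, counting error only).

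Pla2g2d (chr4:138775735-138782052), a secreted phospholipase A2 known from lymphoid organs, varied most among the RPM libraries. It reached 559.1, 143.5 and 163.9 CPM in RPM, against 0, 0 and 0.06881 CPM in F4/80hi YFP- cells. RPM replicate 1 lay 3.896 times above the lowest RPM library, and the coefficient of variation was 81.13%. With 1 read in F4/80hi YFP- cells, the ratio of means was 12590 (95% interval 2260 to 497400).

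Pcolce2 (chr9:95637628-95695551) encodes an enhancer of the protease that removes the C-terminal propeptide of procollagen. It reached 222.1, 149.4 and 96.35 CPM in RPM, against 0, 0 and 0.06881 CPM in F4/80hi YFP- cells. It was the member most restricted to RPM: 25 of the 30 other libraries held no read, and the highest of them held 0.2787 CPM. The ratio to F4/80hi YFP- cells was 6800 (95% interval 1220 to 268600, 1 read), and in F4/80hi YFP+ cells, with 0 reads, the level was at least 2226-fold lower. Bounds of this kind use a floor of 3 reads over the group.

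Gfra2 (chr14:70890107-70979840) encodes the receptor that binds neurturin and signals together with the kinase RET. It reached 455.5, 506.6 and 496.0 CPM in RPM, against 0, 0.06647 and 0.06881 CPM in F4/80hi YFP- cells. The RPM libraries were tight in CPM (coefficient of variation 5.547%) and ran from 163.8 to 220.0 in TPM. The ratio of means in CPM was 10780 (95% interval 2984 to 89000, 2 reads). Gfra2 was also the member with the highest level outside RPM: kidney cDC2 averaged 23.02 ± 10.38 CPM (SD, n = 5), and RPM lay 21.11 times above them.

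Dgki (chr6:36837381-37300955) encodes a diacylglycerol kinase, which ends diacylglycerol signals by phosphorylating the lipid. It reached 39.13, 61.87 and 86.06 CPM in RPM and no read in any of the 6 F4/80hi libraries, so the level in RPM was at least 828.8-fold higher than in F4/80hi YFP- cells. At 18.04 TPM it was the least abundant member per length and ranked 5223. Unlike Fcna and Cd5l, it was lowest in RPM replicate 1.

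Ubd (chr17:37193892-37196101) encodes FAT10, a ubiquitin-like protein that targets partners to the proteasome. It reached 242.4, 144.8 and 215.9 CPM in RPM, against 0, 0 and 0.06881 CPM in F4/80hi YFP- cells and 0.2961, 0 and 0.6288 CPM in F4/80hi YFP+ cells. The ratio to F4/80hi YFP- cells was 8764 (95% interval 1573 to 346200, 1 read). Over F4/80hi YFP+ cells, which held 13 reads, it was 652.0.

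Slc16a9 (chr10:70245276-70285951) belongs to the monocarboxylate transporter family and is neither secreted nor a signalling protein by its known role. It reached 307.2, 452.7 and 338.1 CPM in RPM and no read in F4/80hi YFP- cells, at least 4865-fold lower there. Over F4/80hi YFP+ cells the ratio was 5404 (95% interval 1849 to 26210, 3 reads).

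The 9 genes together made up 1.578%, 1.548% and 1.394% of all TPM in the 3 RPM libraries, or 15780, 15480 and 13940 TPM. The same sum was 17.45 to 41.21 TPM in spleen cDC2, 5.81 to 15.96 TPM in spleen cDC1, 1.53 to 10.55 TPM in CD11bhi YFP+ cells, 3.83 to 6.34 TPM in CD11bhi YFP- cells, 4.33 to 19.26 TPM in kidney cDC2, 0.43 to 2.85 TPM in kidney cDC1, 0.42 to 3.04 TPM in F4/80hi YFP+ cells and 0.74 to 2.2 TPM in F4/80hi YFP- cells. No RPM library overlapped any library of the 8 other populations for any of the 9 genes, which the choice of members fixed in part. Of all genes tested, 7.72% had every RPM library above every other library. Called here means an adjusted p under 0.05 together with a log2 fold at or beyond 1 in either direction, in edgeR's quasi-likelihood test. As background, 20.1% of the 14258 genes tested were called between RPM and F4/80hi YFP- cells (9.02% higher, 11.1% lower), and 19.7% between RPM and F4/80hi YFP+ cells (8.68% higher, 11% lower). Between RPM and spleen cDC2 30% were called (15.5% higher, 14.5% lower), and between RPM and spleen cDC1 27.6% (15.5% higher, 12.1% lower). All 9 members passed the filter on low counts, and their RPM libraries would carry them past it whatever the other groups held.

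**Figure D1:**
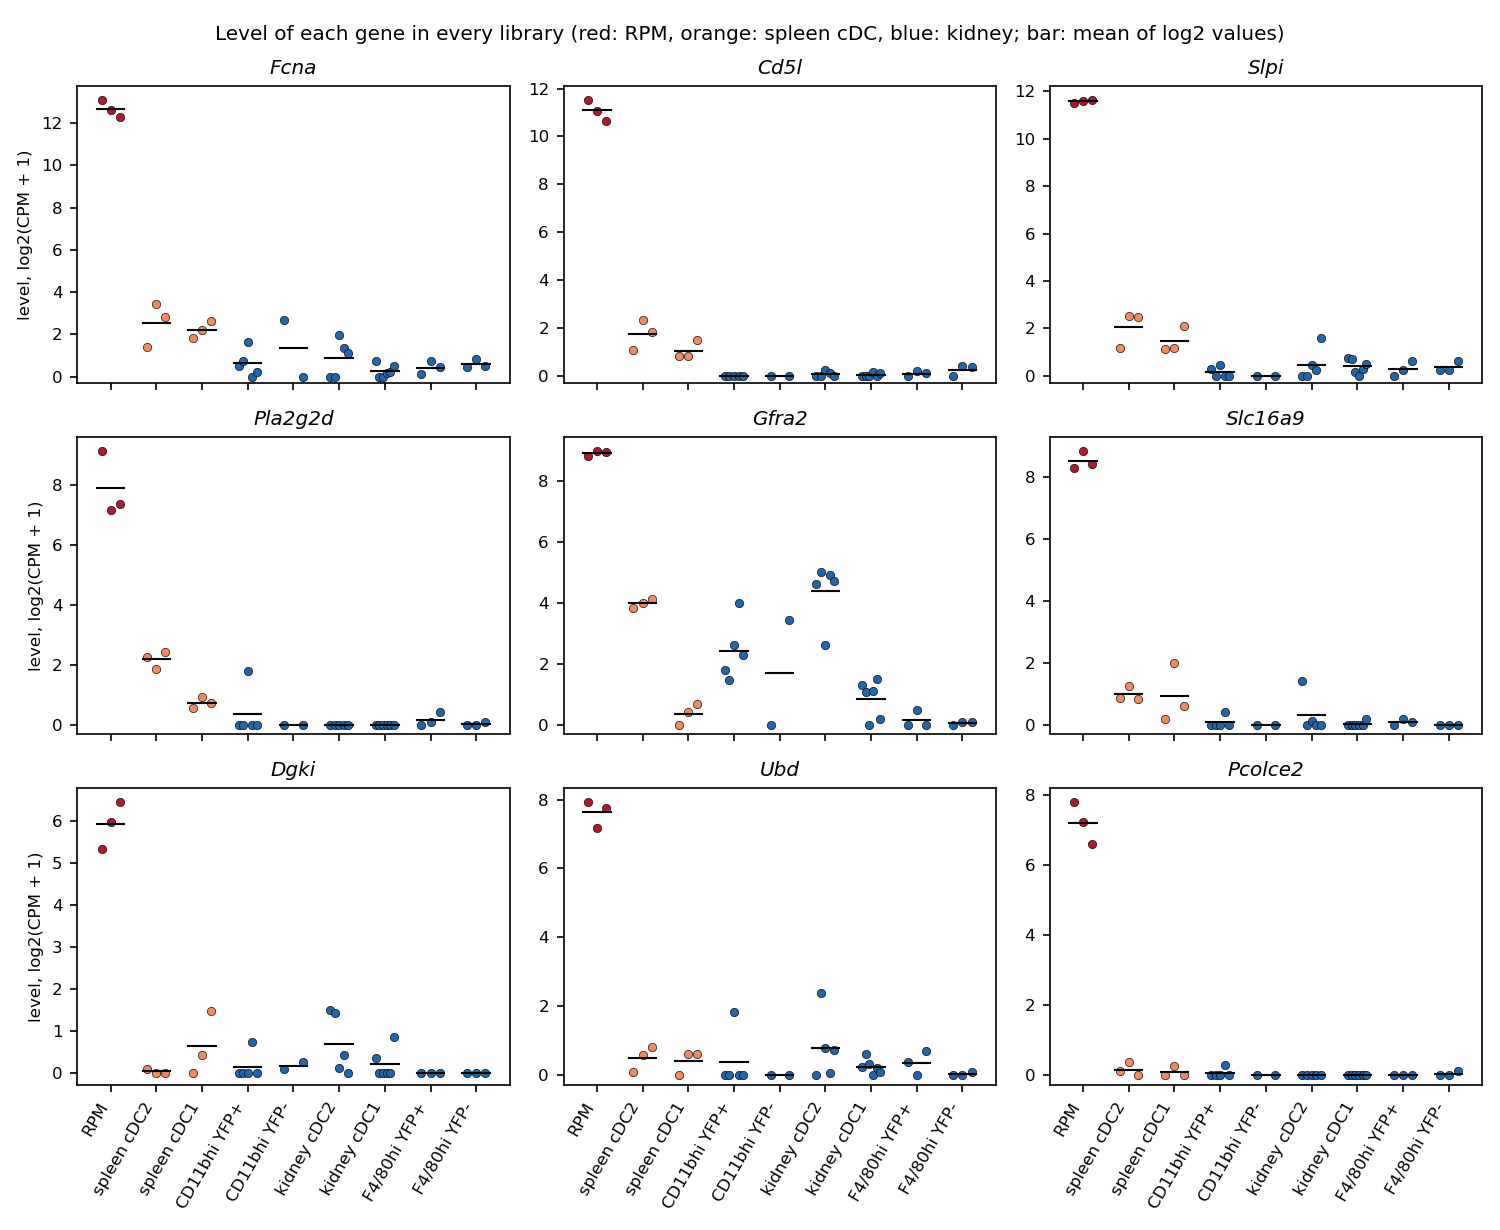
Level of each of the 9 genes in all 33 libraries, as log2(CPM + 1), with 1 panel per gene, 1 column per population and 1 point per library; bars are means of the log2 values. RPM libraries (red) lie above all others in every panel. Outside RPM the highest points are those of Gfra2 in kidney cDC2. Gfra2 also lies above 0 in spleen cDC2 and in all CD11bhi libraries except YFP- replicate 1. Spleen cDC2 libraries lie above 0 for Fcna, Cd5l, Slpi and Pla2g2d as well.

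In CPM, replicate 1 of RPM was the highest RPM library for 5 of the 9 genes and the lowest for the other 4. It was highest for Fcna, Cd5l, Pla2g2d, Pcolce2 and Ubd and lowest for Slpi, Gfra2, Slc16a9 and Dgki. In TPM the same held except for Ubd, at 338.0, 241.7 and 363.4 TPM in replicates 1, 2 and 3. Marker lists of other cell types were read in the same libraries. Neutrophil markers summed to 1.683 to 4.09 CPM in RPM, against 0 to 0.5505 CPM in F4/80hi YFP- cells (5 genes measured, Retnlg at 0 in RPM), and fibroblast markers to 5.59 to 14.28 CPM, against 1.068 to 3.716 CPM (6 genes, none at 0). T and NK cell markers summed to 0.3895 to 2.525 CPM in RPM, against 2.89 to 10.87 CPM (5 genes, Ncr1 at 0). Endothelial markers summed to 252.8 to 379.8 CPM in RPM, against 9.106 to 28.25 CPM (6 genes, Flt1 at 0 in RPM); Pecam1, which macrophages also express, was the 1 endothelial marker called higher. Marginal zone macrophage markers summed to 120.9 to 331.6 CPM, against 42.72 to 139.5 CPM (4 genes, none at 0). B cell markers summed to 124.8 to 217.5 CPM, against 124.4 to 154.5 CPM (6 genes, none at 0), and plasma cell markers to 422.4 to 529.7 CPM, against 311.0 to 405.2 CPM (5 genes, none at 0). The list of cDC markers, of which RPM share several, summed to 4114 to 4902 CPM in RPM, against 1935 to 2287 CPM (10 genes, none at 0). Erythroid markers summed to 27.41 to 66.46 CPM in RPM, against 0.3884 to 0.8641 CPM in F4/80hi YFP- cells. These sums leave out the globins Hba-a1, Hbb-b1 and Hbb-bt, which have 0 reads in the STAR counts of every library but not in the RSEM values. In TPM, Hba-a1 averaged 2022 ± 487.2 in RPM, against 22.52 ± 36.78 in F4/80hi YFP- cells (SD, n = 3 each), Hbb-b1 1805 ± 596.2 against 13.15 ± 22.77, and Hbb-bt 415.5 ± 241.8 against 0.9633 ± 1.242. Hba-a1 and Hbb-b1 thus stood above Cd5l in RPM. The part of these transcripts in the levels of the 9 genes was not tested.

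The stated choice of members did not name the dendritic cell populations, so these were tested. The tests are not fully independent of that choice. Spleen cDC libraries carry the same sort codes as the RPM libraries, and members passed the low count filter through RPM. The part of RPM transcripts in the spleen cDC counts was not tested. In cDC2, several of the genes had more reads in the spleen than in the kidney, at levels far below RPM. By edgeR's quasi-likelihood test with Benjamini-Hochberg adjustment over all genes, 4 of 9 members were higher in spleen cDC2 than in kidney cDC2 and 0 were lower, beside 6.9% of all genes higher, 11.9% lower and 18.8% called either way. The median log2 fold of the members was 2.64, or 1.98 with genes at 0 reads set to their bound, beside -0.13 over all genes.

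Cd5l reached 1.12, 4.013 and 2.601 CPM in spleen cDC2, against 0, 0, 0.1797, 0.09605 and 0 CPM in kidney cDC2. The groups did not overlap, and the fitted log2 fold was 4.86 (SE 0.73, adjusted p 4.04e-05). Pla2g2d reached 3.778, 2.619 and 4.437 CPM in spleen cDC2 and no read in any of the 5 kidney cDC2 libraries, so it was at least 105.7-fold higher (adjusted p 0.00287). These 2 genes kept their calls in all 18 other settings tried.

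Slpi reached 1.259, 4.681 and 4.589 CPM in spleen cDC2, against 0, 0, 0.3595, 0.1921 and 1.981 CPM in kidney cDC2. Kidney cDC2 replicate 5 overlapped the lowest spleen library, and the log2 fold was 2.64 (SE 0.73, adjusted p 0.00685). With only the compared groups in the fit the adjusted p was 0.134. Slc16a9 reached 0.8396, 1.393 and 0.7649 CPM in spleen cDC2, against 1.671, 0, 0.08987, 0 and 0 CPM in kidney cDC2. Kidney cDC2 replicate 1 exceeded every spleen cDC2 library, the ratio of plain means was 2.837 and the fitted log2 fold with the prefix term was 3.71 (SE 1.27, adjusted p 0.0271). That call held in only 10 of 18 other settings and was lost in 4 of the 8 fits that left out 1 library.

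Fcna reached 1.609, 9.641 and 5.966 CPM in spleen cDC2, against 0, 0, 2.876, 1.585 and 1.15 CPM in kidney cDC2. Its log2 fold of 1.98 (SE 0.80) did not pass (adjusted p 0.0613). With the sort code as a replicate block it passed at 1.70 (adjusted p 0.0433). Gfra2 reached 13.29, 14.99 and 16.52 CPM in spleen cDC2, against 23.82, 31.22, 5.212, 29.39 and 25.44 CPM in kidney cDC2. It showed no call (log2 fold -0.55, 95% interval -2.07 to 0.96, adjusted p 0.62), and kidney cDC2 replicate 3 alone lay below the spleen libraries. Pcolce2, Dgki and Ubd did not pass either.

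In cDC1, 3 of 9 members were higher in spleen than in kidney and 0 lower, beside 4.45% of all genes higher, 6.66% lower and 11.1% called by edgeR's quasi-likelihood test. The median log2 fold was 2.94 (2.69 with bounds), beside -0.12 over all genes. Slc16a9 reached 0.1375, 2.961 and 0.5284 CPM in spleen cDC1 and 2 reads in all in kidney cDC1, a ratio of 53.85 (95% interval 14.91 to 444.7, adjusted p 0.000564). Its groups did not overlap in CPM, but spleen replicate 1 and kidney replicate 6 each held 2 reads (0.1375 and 0.1347 CPM). Spleen replicate 2 held most of the reads. Cd5l reached 0.7565, 0.7897 and 1.783 CPM in spleen cDC1, against 0 to 0.1285 CPM in kidney cDC1 (median 0), a ratio of 34 (95% interval 9.413 to 280.8, adjusted p 0.00289).

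Fcna reached 2.545, 3.553 and 5.152 CPM in spleen cDC1, against 0 to 0.6742 CPM in the 6 kidney cDC1 libraries. The groups did not overlap, and the log2 fold was 2.94 (SE 1.04, adjusted p 0.042). This call was lost in 7 of 9 fits that left out 1 library, with log2 folds of 2.39 to 3.94. Slpi (adjusted p 0.126) and Pla2g2d (at least 21.87-fold higher, adjusted p 0.0939) did not pass. The difference between the tissue effects of cDC2 and cDC1 was tested as an interaction. None of the 9 members was called by edgeR, beside 5.24% of all genes. At an unadjusted p under 0.05 there were 2, Dgki with -6.27 (adjusted p 0.129) and Slc16a9 with -4.16 (adjusted p 0.155). DESeq2 called 0, limma on log2(TPM + 1) called 1, Pla2g2d with 1.40 (adjusted p 0.0155), and limma on log2(TPM + 0.1) called 0.

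**Figure D2:**
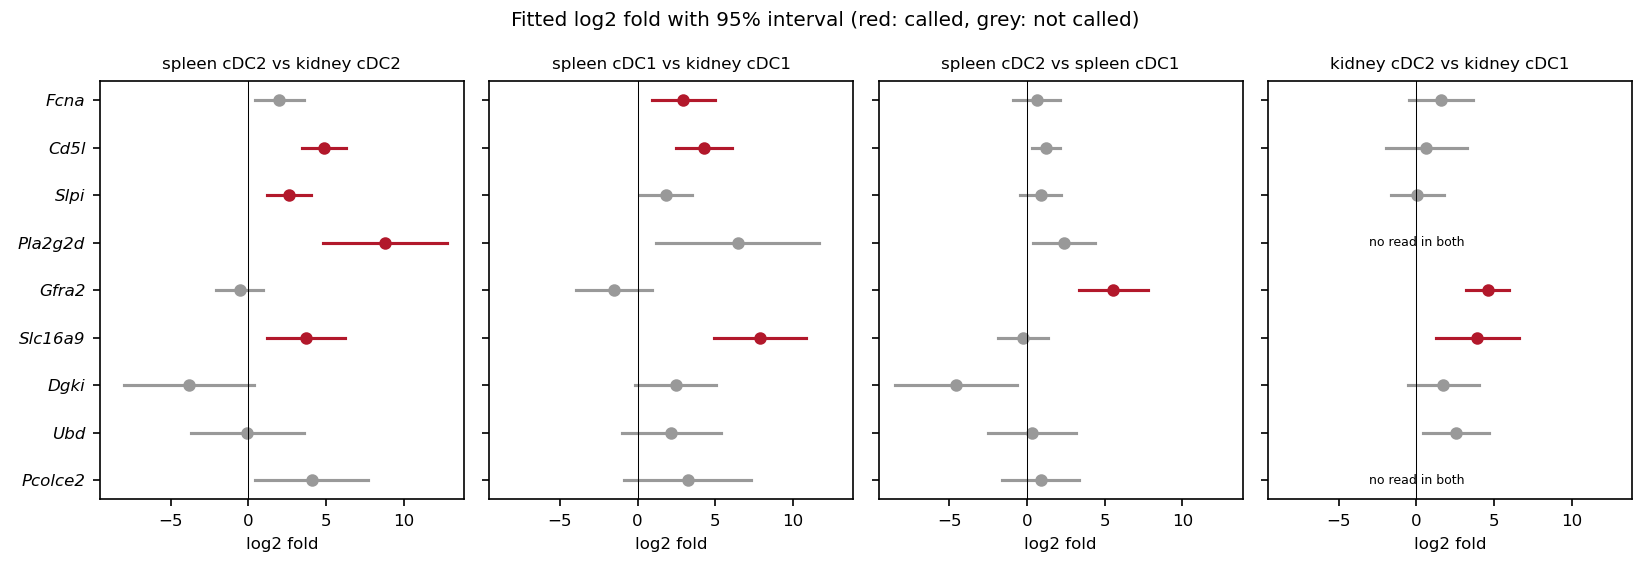
Fitted log2 fold of each gene with its 95% interval in the 4 dendritic cell comparisons, from edgeR; red points were called and grey points were not, and folds of genes without reads in a group depend on the fit and are not bounds. Cd5l lies right of 0 in both tissue comparisons, and Gfra2 stands apart in both comparisons of cDC2 with cDC1.

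Gfra2 was the member that separated the dendritic cell subsets. It reached 13.29, 14.99 and 16.52 CPM in spleen cDC2, against 0, 0.329 and 0.5945 CPM in spleen cDC1, and the groups did not overlap. The log2 fold was 5.55 (SE 1.14, adjusted p 0.000471), a ratio of plain means of 48.52, and the call held in all 16 other settings. In the kidney, cDC2 reached 5.212 to 31.22 CPM (median 25.44), against 0 to 1.862 CPM in cDC1, without overlap. The log2 fold was 4.58 (SE 0.71, adjusted p 8.32e-06), a ratio of 24.12, and the call held in all 21 other settings. The interaction for Gfra2 was 0.97 (95% interval -1.77 to 3.71, adjusted p 0.892).

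In the spleen, Gfra2 was the 1 of 9 members called between cDC2 and cDC1, beside 8.3% of all genes higher, 6.32% lower and 14.6% called. Pla2g2d was 5.251 times higher in spleen cDC2 without overlap (3.778, 2.619 and 4.437 CPM in cDC2, against 0.4814, 0.9213 and 0.6605 CPM in cDC1) and did not pass (adjusted p 0.119). With the sort code as a replicate block it passed at a log2 fold of 2.32 (adjusted p 0.0102), so the count was 2 of 9. In the kidney, 2 of 9 members were called higher in cDC2 and 0 lower, beside 10.2% higher, 5.48% lower and 15.7% called, and neither Pla2g2d nor Pcolce2 had a read in either subset. The other call, Slc16a9, had 36 reads in kidney cDC2, 35 of them in replicate 1, against 2 reads in cDC1 (ratio 15.69, 95% interval 4.342 to 129.5, adjusted p 0.0325). Without that library its log2 fold was -0.83 (adjusted p 0.823). With the sort code as a block it was -0.45 (adjusted p 0.789), leaving 1 of 9 called.

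In the kidney CD11bhi cells, Gfra2 was again the main member with reads. It reached 2.461, 1.793, 5.172, 15.02 and 3.865 CPM in CD11bhi YFP+ cells, against 0 and 9.751 CPM in CD11bhi YFP- cells. CD11bhi YFP+ replicate 4 stood above its group, and both YFP fractions overlapped. Against kidney cDC2, Gfra2 in CD11bhi YFP+ cells had a log2 fold of -2.18 (SE 0.72, ratio 0.246) that did not pass (adjusted p 0.105). Without CD11bhi YFP+ replicate 4 it passed at -2.88 (adjusted p 0.0215 by edgeR). That library had the fewest reads in genes of all 33 (8729224) and the largest share outside genes (64%).

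By edgeR's quasi-likelihood test 0 of 9 members were called between CD11bhi YFP+ cells and kidney cDC2, beside 2.51% of all genes. There were 4 at an unadjusted p under 0.05, DESeq2 called 0, and limma called 1 with a pseudocount of 1 (Gfra2, -1.76, adjusted p 0.0198) and 0 with 0.1. Between CD11bhi YFP+ and CD11bhi YFP- cells 0 of 9 were called, beside 5.34% of all genes. There was 1 at an unadjusted p under 0.05 (Fcna), and DESeq2 and both limma fits called 0. Without CD11bhi YFP- replicate 2, the only library of that group with Gfra2 reads, 2 of 9 members were called. Gfra2 then had an adjusted p of 0.0113, with 0 reads in the remaining YFP- library. That fit sets a single library against 5 and takes its spread from the other populations, so the lone library is assumed to vary as they do.

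The low levels in spleen cDC were set beside those of red pulp macrophage markers in the same libraries. Of the RPM mean, spleen cDC2 held 0.0865% for Fcna, 0.115% for Cd5l and 0.115% for Slpi, and spleen cDC1 held 0.0565%, 0.0495% and 0.0624% for these genes. The 10 markers ranged from 0.143% (Slc40a1, the iron exporter) to 14.0% (Emr1, which encodes F4/80) in cDC2 and from 0.0263% (Mertk) to 25.1% (Treml4) in cDC1. Spic stood at 1.02% in cDC2 and 0.928% in cDC1, Vcam1 at 0.311% and 0.533%, and Hmox1, the haem-degrading enzyme, at 0.184% and 1.22%. Fcna, Cd5l and Slpi were thus below all 10 markers in cDC2 and, in cDC1, below most of them. Fcna, Cd5l, Slpi and Slc40a1 were all lowest in spleen cDC2 replicate 1. Gfra2 at 3.07% and Pla2g2d at 1.25% in cDC2 lay above 8 of the 10 markers, with only Treml4 (5.07%) and Emr1 higher. Dgki in cDC1, at 1.13%, lay below Hmox1 and Treml4 and above the other 8.

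Markers of the list also differed between spleen and kidney cDC, in both directions. Of the 10 RPM markers, 6 were higher and 4 lower in spleen cDC2 than in kidney cDC2, beside 6.9% and 11.9% of all genes. Their sums overlapped, with 428.0 to 567.6 CPM in spleen and 268.4 to 510.8 CPM in kidney. In cDC1, 5 were higher and 2 lower, beside 4.45% and 6.66% of all genes. The cDC1 sums were 579.3 to 684.7 CPM in spleen and 182.6 to 245.7 CPM in kidney. No marker was at 0 in these 4 populations. The part of RPM transcripts in the spleen cDC values was not tested. The share of kidney libraries with reads differed by library prefix. It was larger in GS for most members and larger in BS for Gfra2 and Dgki alone. Cd5l had reads in 8 of 12 kidney libraries of prefix GS and in 0 of 12 of prefix BS. For Fcna these counts were 12 of 12 and 6 of 12, and for Slpi 10 of 12 and 5 of 12. For Ubd they were 8 of 12 and 5 of 12, for Slc16a9 4 and 2, and for Pla2g2d 3 and 1. Gfra2 had 9 of 12 and 10 of 12, Dgki 3 of 12 and 6 of 12, and Pcolce2 1 in each. Mean levels in GS and BS kidney libraries were 0.749 and 0.792 CPM for Fcna, 0.404 and 0.169 CPM for Slpi, and 0.107 and 0 CPM for Cd5l. They were higher in BS for Gfra2 (5.311 and 7.973 CPM), Dgki (0.103 and 0.389 CPM), Ubd (0.219 and 0.644 CPM), Slc16a9 (0.0357 and 0.167 CPM) and Pla2g2d (0.0404 and 0.210 CPM). Pcolce2 had 1 read in GS and 2 in BS. Several of these BS means rest on few libraries. All 40 Pla2g2d reads lay in CD11bhi YFP+ replicate 3, and 35 of 38 Slc16a9 reads in kidney cDC2 replicate 1. Of 139 Ubd reads, 81 lay in kidney cDC2 replicate 2 and 41 in CD11bhi YFP+ replicate 3. Of 160 Fcna reads, 93 lay in CD11bhi YFP- replicate 1. The populations in the 2 sets of kidney libraries differ, but kidney cDC2 and cDC1 held both prefixes. Within kidney cDC2, Fcna and Slpi each had reads in 3 of 3 GS and 0 of 2 BS libraries. Dgki there averaged 0.142 CPM in GS and 1.737 CPM in BS. Within kidney cDC1, Slpi averaged 0.2037 CPM in GS and 0.4762 CPM in BS.

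**Figure D3:**
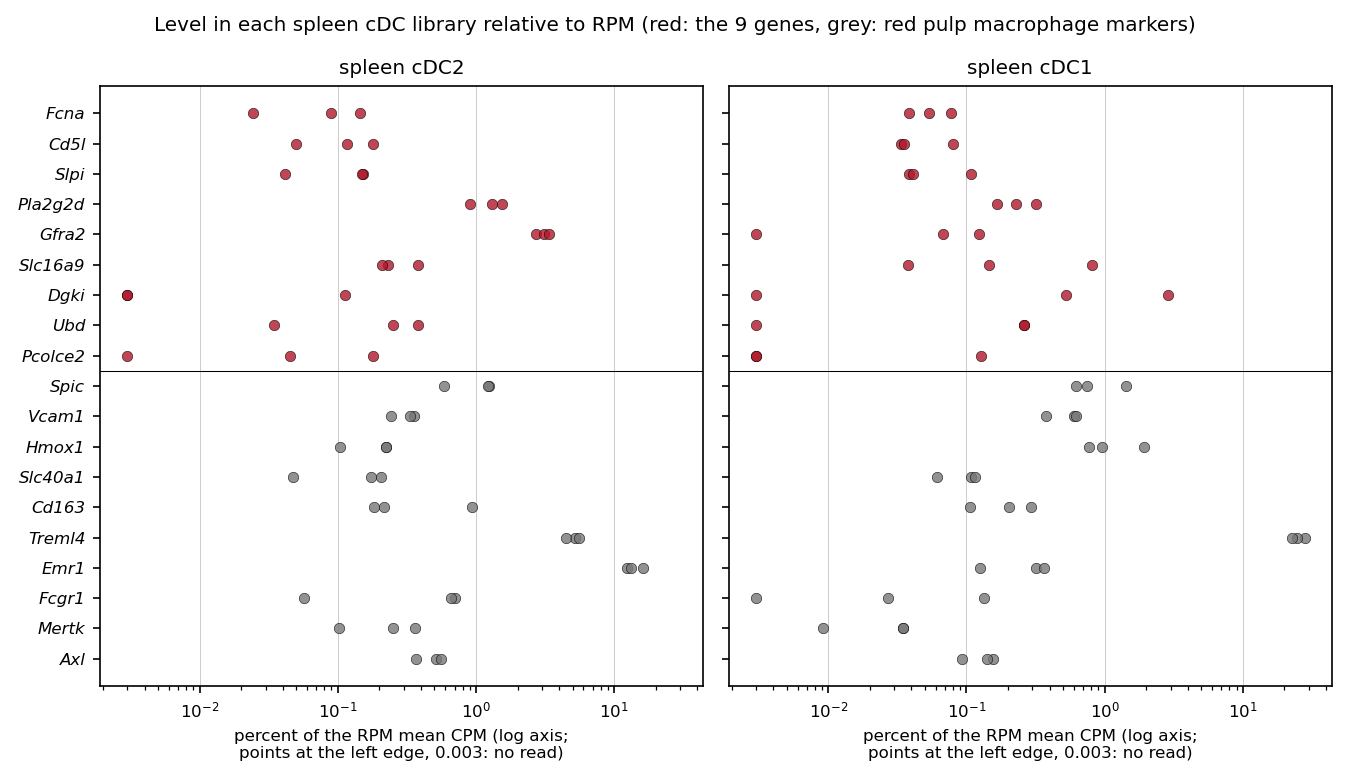
Level in each spleen cDC2 (left) and spleen cDC1 (right) library as a percent of the RPM mean CPM on a log axis, with the 9 genes in red, the 10 red pulp macrophage markers in grey, and libraries without reads at the left edge. In cDC2, the means of Fcna, Cd5l and Slpi lie below those of all 10 markers, while Gfra2 and Pla2g2d in cDC2 lie at 3.07% and 1.25% on average.

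Partners and relatives of the 9 genes were examined in 9 lists with 103 genes, of which 76 could be tested. Between RPM and F4/80hi YFP- cells, 16 were higher and 12 lower, 28 of 76 in all, beside the 9.02% higher and 11.1% lower of all genes. Against F4/80hi YFP+ cells, which share the RPM libraries, 15 were higher and 13 lower. Against spleen cDC2 26 were higher and 11 lower, and against spleen cDC1 24 and 13.

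In the list for CD5L partners and LXR, 4 of 13 genes tested were higher in RPM and 1 lower, with a median log2 fold of 0.69 (all genes -0.03). Nr1h3, which encodes LXR alpha, averaged 807.1 ± 157.6 CPM in RPM, against 1.893 ± 0.5432 CPM for F4/80hi YFP- (both SD, n = 3; log2 fold 8.73, SE 0.99, adjusted p 5.52e-08 by edgeR). Its partner Rxra averaged 361.9 CPM in RPM, against 40.43 CPM (log2 fold 3.16, adjusted p 6.14e-08), and Abcg1, a cholesterol exporter that LXR activates, 279.3 CPM against 54.56 CPM (2.36). Cd36, a fatty acid and scavenger receptor through which CD5L enters cells, was lower, with 20.23 CPM in RPM against 390.2 CPM (-4.27).

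In the ficolin and lectin pathway list, 0 of 5 genes were higher and 1 lower, with a median log2 fold of 0.58 (1.24 with bounds). Masp1, a protease that ficolins carry, had 0 reads in RPM and 154 in F4/80hi YFP- cells, at least 54.06-fold lower (adjusted p 0.00361). Masp2, the protease that cleaves C4 and C2, had 5 reads in RPM and 3 in F4/80hi YFP- cells. It is named outside the rule for named genes, after its values were seen.

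Of 6 serine protease inhibitors and relatives tested, 4 were higher and 2 lower (median 1.27). Serpinb6a, an intracellular inhibitor of cathepsin G, averaged 513.1 CPM in RPM, against 38.68 CPM in F4/80hi YFP- cells (3.73). Serpinb1a, an inhibitor of neutrophil elastase, averaged 9.599 CPM against 1.309 CPM (2.84). Wfdc17, a small protein with the same WAP fold as SLPI, was lower at 133.4 CPM in RPM against 740.7 CPM (-2.47), and Wfdc2, another WAP protein, had 0 reads in RPM and 646 in F4/80hi YFP- cells, at least 224.0-fold lower. Wfdc2 is also made by kidney epithelium, and kidney tubule markers summed to 0 to 5.011 CPM in RPM, against 212.5 to 583.9 CPM in F4/80hi YFP- cells (6 genes, Lrp2 and Kap at 0 in RPM). Their part in this difference was not tested.

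Of 5 phospholipases A2 and their receptor, 3 were higher and 0 lower (median 1.95). Pla2g15, a lysosomal enzyme, averaged 1440 CPM in RPM, against 372.1 CPM (1.95), and Pla2g12a 27.1 CPM against 7.729 CPM (1.81). Pla2g5, a gene close to Pla2g2d on chromosome 4, had 32 reads in RPM and 0 in F4/80hi YFP- cells, at least 9.7-fold higher (adjusted p 0.0314).

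In the GDNF family list, 1 of 4 was higher and 1 lower (median 0.04). Gfra4, a relative of Gfra2 that binds persephin, had 251 reads in RPM (1.563 to 11.25 CPM) and 0 in F4/80hi YFP- cells, at least 84.68-fold higher (adjusted p 0.00906). Nrtn, the ligand of GFRA2, had 0 reads in RPM and 42 in F4/80hi YFP- cells, at least 14.36-fold lower (adjusted p 0.0389 by edgeR). Kidney tubule markers summed to 0 to 5.011 CPM in RPM, against 212.5 to 583.9 CPM in F4/80hi YFP- cells. The part of tubule transcripts in the Nrtn difference was not tested. Ret, the kinase through which GFRA2 signals, had 1 read in RPM and 1 in F4/80hi YFP- cells but 127 in spleen cDC2, where it averaged 2.796 ± 0.2773 CPM (SD, n = 3). Between RPM and spleen cDC2 Ret was called lower in RPM, by 95.43-fold (95% interval 17.13 to 3769). So Gfra2 was abundant in RPM where Ret was at the limit of detection, and both had reads in spleen cDC2. Ret is named outside the rule, after its values were seen.

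Among 13 SLC16 transporters and their chaperones, 1 was higher and 2 lower (median -1.26). Slc16a10, an aromatic amino acid transporter, averaged 127.5 CPM in RPM, against 25.38 CPM in F4/80hi YFP- cells (2.33). Slc16a3, a lactate exporter, averaged 1.92 CPM against 19.99 CPM (-3.35), and Emb, a chaperone of such transporters, 6.865 CPM against 85.47 CPM (-3.61). Among 8 diacylglycerol kinases, 0 were higher and 3 lower (median -0.52, or -0.63 with bounds), the opposite direction to Dgki. Dgkg had 1 read in RPM and 392 in F4/80hi YFP- cells (479.8-fold lower, 95% interval 86.11 to 18950). Dgkh averaged 2.83 CPM in RPM against 64.03 CPM (-4.50), and Dgkd 23.09 CPM against 167.0 CPM (-2.86).

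In the FAT10 and ubiquitin-like list, 1 of 14 was higher and 1 lower (median 0.14). Sqstm1, the autophagy adaptor p62, averaged 1030 CPM in RPM, against 361.2 CPM (1.51), and Uba7, the activating enzyme of ISG15, 123.2 CPM against 300.4 CPM (-1.29). In the procollagen list, 2 of 8 were higher and 1 lower (median 1.81, or 1.69 with bounds). Tll2, a protease of the BMP1 family, had 81 reads in RPM and 0 in F4/80hi YFP- cells, at least 23.75-fold higher (adjusted p 0.0172), and Adamts2, an N-propeptidase, 59 reads and 1 read (61.75-fold, 95% interval 11.08 to 2439, adjusted p 0.0378). Pcolce, the closest relative of Pcolce2, averaged 1.091 CPM in RPM, against 17.07 CPM (-3.96, adjusted p 0.0192 by edgeR). The part of kidney tubule transcripts in this Pcolce difference was not tested. The list medians mix genes of very different depth.

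**Figure D4:**
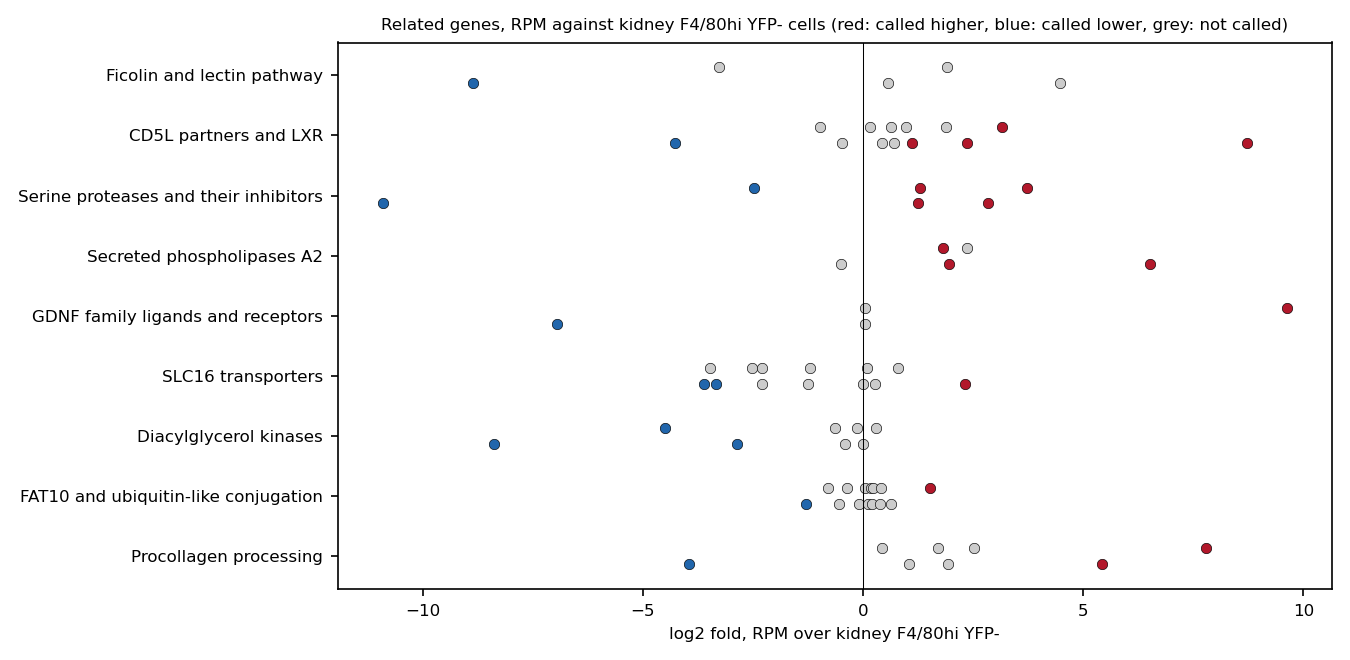
Fitted log2 fold of RPM over F4/80hi YFP- cells for the 76 tested genes of the 9 lists, 1 point per gene, red where called higher, blue where called lower and grey where not called; points of genes without reads in a group depend on the fit. Diacylglycerol kinases are called only to the left, phospholipases A2 only to the right, and the LXR list has Nr1h3 farthest to the right.

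Other genes followed the 9 members across the 33 libraries, as a description without a test, since the libraries of a population share cell type and tissue. By Pearson's r with the mean scaled level of the members, the closest were Paqr9, Mrap, C6, Hs3st2, Ccr3, Ccdc148, Akr1b7, Smc1b, Cmbl and Vstm4, with r from 0.9825 to 0.9889. Among the 9649 genes considered, 80 had an r above 0.9. Of these, Ccr3, a chemokine receptor, averaged 1154 ± 172.0 CPM in RPM and 0.4564 CPM in F4/80hi YFP- cells, and C6, a component of the complement membrane attack complex, 814.9 ± 166.8 CPM and 0.6051 CPM. C6 was the closest gene to Fcna (0.9769), Cd5l (0.9933) and Slc16a9 (0.9865), Ccr3 to Slpi (0.9885), Paqr9 to Ubd (0.9673), Akr1b7 to Pcolce2 (0.9974) and Cmbl to Dgki (0.9632).

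Pla2g2d and Gfra2 had other nearest genes. For Pla2g2d it was Itgad (0.9773), the integrin subunit CD11d, at 1421 CPM in RPM. For Gfra2 the nearest genes were Rasgrp2 (0.9035), Dmpk (0.9015) and Bin2 (0.8931), all lower values than for any other member. Between members, Cd5l and Slpi had the highest of the 36 pairwise values (r = 0.994) and Fcna and Gfra2 the lowest (r = 0.7537), and each of the 8 pairs with Gfra2 lay under 0.8. These values rest mainly on the contrast of the 3 RPM libraries with the other 30.

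Genes within 100 kb of the members on the GRCm38.p6 annotation were compared in the same fit. Of 21 neighbours tested, 6 were higher and 2 lower in RPM than in F4/80hi YFP- cells by edgeR, beside the 9.02% and 11.1% of all genes, with a median log2 fold of 0.24. The 6 were Edf1 and Tmem141 near Fcna, Fcrl1 near Cd5l, Pla2g5 near Pla2g2d, and Paqr9 and Trpc1 near Pcolce2. The 2 were Bmyc near Fcna and Fcrls near Cd5l. These names were taken after their values were seen. Paqr9, next to Pcolce2, averaged 378.0 CPM in RPM and 0.1098 CPM in F4/80hi YFP- cells and was also the gene most like the members as a set. The counts used here were not split by strand, so reads of Fcna and of the antisense gene Fcnaos that overlaps it cannot be told apart.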

How the data were processed

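PolyA RNA of sorted cells was extracted with PicoPure, amplified with SMARTseq v4 and made into libraries with MicroPlex v2, per the labels' protocols. The authors deposited, per library, gene counts from STAR (unstranded column used) and expected counts and TPM from RSEM, with a joint TPM table, on mm10, per the submitters' processing notes. Versions of STAR and RSEM are not given in the sources used here. Counts outside genes were left out of library sizes. The globins Hba-a1, Hbb-b1 and Hbb-bt were at 0 in the deposited STAR counts of all libraries but not in the RSEM values, and no member had 0 reads with more than 0.04 TPM. The joint table matched the library files for 24027 names, with a largest difference of 0.

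The members and all gene lists were chosen with earlier results of these data known. Counts were tested with edgeR 4.0.16 (R 4.3.3) by the quasi-likelihood test with TMM factors, over all 33 libraries in 1 fit with a term per population and the library prefix, after filterByExpr (minimum count 10, minimum total 15), and p-values were adjusted by Benjamini-Hochberg over 14258 genes. A call needed an adjusted p under 0.05 together with a log2 fold at or beyond 1 in either direction. Alternatives were DESeq2 1.42.0, rounded expected counts, limma 3.58.1 on log2(TPM + 1) and log2(TPM + 0.1), no filter, no prefix term, the sort code as block, the compared groups alone, no SR17_017 libraries and 1 library left out in turn. The fit of GS libraries alone and the look at kidney cDC2 replicate 3 were chosen after seeing the data. The scripts were tested on simulated data.

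Sort codes come from the labels. Samples of 1 code deviated together, with every r of 3 pairs over 0.1, in several comparisons. These were spleen and kidney cDC2 (0.1373 to 0.1899), spleen cDC2 and cDC1 (0.1967 to 0.4481) and kidney cDC2 and cDC1 (0.1199 to 0.569). The same held between RPM and F4/80hi YFP+ cells, spleen cDC2 or spleen cDC1. In 2 comparisons the lowest pair fell under 0.1 while the others lay above it. Between spleen and kidney cDC1 the values were 0.3266, 0.065 and 0.234. Between RPM and F4/80hi YFP- cells they were 0.1703, -0.0083 and 0.3856. The main fit held the library prefix and no sort code, so its p-values do not use this pairing. As a model term, the code entered only in the alternative fit with a replicate block.

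Named genes are all 9 members, at most 4 called genes per list with the largest fold, and the 10 genes most correlated with the members, with the 3 nearest per member, among genes whose highest population mean reached 10 CPM. Ratios with 1 to 3 reads have exact 95% intervals, which, like the floor of 3 reads, cover counting error only. Promoter windows were matched by symbol in the RefSeq table for 8 of 9 members; Gfra2 was not matched.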

Additional observations from a re-analysis of the deposited data

Results flagged for a closer look

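Within populations of 4 to 6 libraries, the gap between the highest or lowest library and its nearest neighbour was compared with the group's range, for pairs of member and population with at least 10 reads in the highest library. Of 15 pairs, 8 had a library that stood apart. A gene with reads in 1 library alone has a gap equal to the range and is always marked. The count of 8 can therefore not be set against a rate expected by chance. Kidney cDC2 held 4 of them: Gfra2 was low in replicate 3 (5.212 CPM), Slpi high in replicate 5 (1.981 CPM), Slc16a9 high in replicate 1 (1.671 CPM) and Ubd high in replicate 2 (4.2 CPM). In CD11bhi YFP+ cells, replicate 4 was high in Gfra2 (15.02 CPM), and replicate 3 was high in both Pla2g2d (2.523 CPM) and Ubd (2.586 CPM), which had no read in the other 4 libraries. Dgki was high in kidney cDC1 replicate 6 (0.8083 CPM). The libraries differed from gene to gene, except that CD11bhi YFP+ replicate 3 stood apart for 2 genes.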

How the results depend on the processing

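Counts of members called moved under these settings. For spleen cDC2 against spleen cDC1 (1) they were 2 with DESeq2, limma on log2(TPM + 1), the compared groups alone, no SR17_017 libraries and GS libraries alone, and 3 with log2(TPM + 0.1). For kidney cDC2 against cDC1 (2) they were 1 with DESeq2, both limma fits and the compared groups alone. Spleen against kidney cDC1 (3) gave 5 without the prefix term and with GS libraries alone. With log2(TPM + 1), CD11bhi YFP+ cells against kidney cDC2 (0) gave 1 and the interaction (0) gave 1.

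With the sort code as replicate block, members called were 2 for spleen cDC2 against cDC1 and 1 for kidney cDC2 against cDC1. For spleen against kidney cDC1 they were 5, beside 3 in the main fit. Samples of 1 code there had r of 0.065 to 0.3266. Other members' counts stayed within 1.5 times. CD11bhi YFP+ against YFP- cells shared 2 codes, with r of -0.224 and -0.1888, and nothing was crossed since codes come from the labels. Slc16a9 in kidney cDC2 against cDC1 turned to -0.446 with the block, -0.9149 with GS libraries alone and -0.8298 without kidney cDC2 replicate 1.

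Over all genes, CD11bhi YFP+ against YFP- cells (762, 619 higher) gave 1287 (1094 higher) with DESeq2, 1149 (1035 higher) with log2(TPM + 0.1) and 0 with the compared groups alone. Spleen against kidney cDC2 (2675, 984 higher) gave 4013 (3445 higher) and 4550 (3808 higher) with limma at pseudocounts 1 and 0.1, and 1658 (743 higher) without SR17_017. The interaction (747, 238 higher) gave 1185 (771 higher) with log2(TPM + 1), and spleen against kidney cDC1 (1584) gave 831 without SR17_017. Of the 10 genes most like the members, 0 were shared under Spearman's rho and 6 over population means.

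Leaving out 1 library gave members called of 1 to 2 (spleen cDC2 against cDC1), 1 to 3 (kidney cDC2 against cDC1), 0 to 2 (CD11bhi YFP+ against kidney cDC2), 0 to 2 (CD11bhi YFP+ against YFP-; 2 without YFP- replicate 2) and 0 to 1 (interaction). All genes called were 646 to 2682 for CD11bhi YFP+ against YFP-, with 2682 without YFP- replicate 2, and 998 to 1905 for spleen against kidney cDC1, with 998 without kidney cDC1 replicate 4. Slc16a9 in kidney cDC2 against cDC1 ranged from -0.8298 to 6.1466. Where fits lost calls by dropping samples, fewer samples entered; the cause was not tested otherwise. Of the settings for counts, 358 stayed within 1.5 times and 40 moved; for single genes 156 kept their side, 26 lost the call and 3 turned. Outside RPM most members had under 10 CPM, so differences there rest on few reads.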
